A study of Homo sapiens with 19 samples.

Results

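The sites bound by ERRα in SKBr3 cells after EGF were set against the sites bound on vehicle. The 2 peak lists held 64750 of the 264623 peaks in the 8 lists of the series. An EGF peak that overlapped no vehicle peak by at least 1 bp was called gained (10768 of 32567 EGF peaks), an EGF peak with such an overlap was called kept (21799 peaks), and a vehicle peak without an EGF peak was called lost (10237 of 32183 vehicle peaks). No other list entered these classes. SKBr3 is an established ERBB2-positive (HER2-positive) human breast cancer cell line. In both conditions the cells were starved of serum for 24 h, after which they received PBS as vehicle or 100 μM EGF for 90 min. Each list was called from 2 ERRα chromatin immunoprecipitation (ChIP) libraries and compared with 1 input library of the same condition. The replicates cannot be separated in such a list, so none of the differences below has a replicate check, and all are given as descriptions. The intervals are 95% Wilson intervals and cover counting error only.

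ERRα, encoded by ESRRA, is an orphan nuclear receptor that binds DNA at the ERR response element and controls genes of mitochondrial energy metabolism with coactivators of the PGC-1 family. EGF binds the receptor EGFR, which pairs with HER2 and signals through the Ras-ERK and PI3K-AKT cascades. Among the early outputs of this signalling are the Jun and Fos proteins, which bind DNA as the dimer AP-1.

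Words of the ERR and AP-1 binding sites were searched on both strands within 100 bp of each peak centre. The full ERR response element was read as TCAAGGTCA, its core word as AAGGTCA (every full element also holds the core word), and the AP-1 word as TGACTCA. Windows of 200 bp from gained peaks show how the words lie in the sequence. They were read from the GRCh37 genome and printed 5′ to 3′ in lower case, with the words in capitals (TGACCTTGA, TGACCTT and TGAGTCA are the same words on the other strand). ZPBP, BCL2L1 and CITED4 are the nearest genes of gained peaks that are among the 12 of highest score and hold the AP-1 word. FOXF2 is the nearest gene of such a peak with a full element. HNF4A and LRRN4 are the nearest genes of high-scoring gained peaks with both.
ZPBP, chr7:50237356-50237555, plus strand: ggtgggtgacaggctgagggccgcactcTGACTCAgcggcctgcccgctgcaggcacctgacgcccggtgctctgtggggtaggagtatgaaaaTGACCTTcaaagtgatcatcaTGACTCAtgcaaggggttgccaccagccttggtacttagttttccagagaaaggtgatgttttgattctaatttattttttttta
BCL2L1, chr20:30283991-30284190, plus strand: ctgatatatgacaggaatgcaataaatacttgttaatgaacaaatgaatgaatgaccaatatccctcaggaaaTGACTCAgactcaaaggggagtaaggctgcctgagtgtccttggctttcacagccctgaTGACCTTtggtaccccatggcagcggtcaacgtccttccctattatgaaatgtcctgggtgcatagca
CITED4, chr1:41341516-41341715, plus strand: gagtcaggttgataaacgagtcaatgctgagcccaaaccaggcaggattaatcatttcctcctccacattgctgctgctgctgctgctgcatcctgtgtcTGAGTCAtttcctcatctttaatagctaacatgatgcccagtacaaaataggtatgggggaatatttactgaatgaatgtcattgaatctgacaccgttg
FOXF2, chr6:1486124-1486323, plus strand: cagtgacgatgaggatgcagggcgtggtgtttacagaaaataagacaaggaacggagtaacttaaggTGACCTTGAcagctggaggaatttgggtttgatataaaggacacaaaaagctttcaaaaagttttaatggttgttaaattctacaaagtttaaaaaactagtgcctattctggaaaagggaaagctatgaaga
HNF4A, chr20:42991293-42991492, plus strand: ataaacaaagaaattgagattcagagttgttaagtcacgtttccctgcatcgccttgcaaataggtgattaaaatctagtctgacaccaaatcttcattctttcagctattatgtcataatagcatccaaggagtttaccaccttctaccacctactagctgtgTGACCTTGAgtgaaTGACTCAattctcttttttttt
LRRN4, chr20:6062089-6062288, plus strand: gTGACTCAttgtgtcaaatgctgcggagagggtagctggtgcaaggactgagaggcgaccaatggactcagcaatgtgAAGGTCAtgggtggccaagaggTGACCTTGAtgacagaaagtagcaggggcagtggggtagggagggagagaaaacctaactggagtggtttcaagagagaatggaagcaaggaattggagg

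The ZPBP window held the AP-1 word at 2 places, with the core word between them. In the BCL2L1 window the AP-1 word lay 23 bp before the peak centre and the core word 36 bp after it. The CITED4 window held the AP-1 word 4 bp from the centre and neither ERR word. In the HNF4A window the full element ran from base 165 to base 173 and the AP-1 word from base 179 to base 185.

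Merging overlapping peaks of both lists gave 42564 sites, of which 21559 (50.6%) had peaks of both lists. Of these, 21024 had exactly 1 peak in each. The overlap was rarely marginal. A kept EGF peak was covered by its best vehicle peak over a median of 95.7% of its length, and only 20 kept EGF peaks had a best overlap under 100 bp. On the other side of the rule, 54 gained peaks had a vehicle peak within 100 bp. The median gap was 18323 bp from a gained peak to the nearest vehicle peak, and 16411 bp from a lost peak to the nearest EGF peak.

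Gained and lost peaks were mostly weak peaks. The score was read as that of the peak caller MACS, a negative log10 P value multiplied by 10. The peaks carry MACS names, and the lowest score in both lists was 50, the value of the P value cutoff 1e-05. The score was compared only by its percentile within a list. Many of the strongest peaks were tied at 3100, which is percentile 98.6 in both lists, and 839 kept EGF peaks scored 3100 or more. The median percentile was 28.1 for gained peaks, 62.4 for kept EGF peaks and 25.1 for lost peaks. With the lists divided into 10 equal groups by score, the share of EGF peaks that were gained went from 65.2% in the lowest group to 2.76% in the highest. The share of vehicle peaks that were lost went from 67.4% to 0.249%. The curves separated in the upper groups. In group 9 the gained share was 8.29% (interval 7.39–9.29%) and the lost share 1.71% (interval 1.31–2.22%), so that strong peaks without a partner were more frequent on EGF than on vehicle. The absence of a peak says that the caller found none at its P value cutoff, not that ERRα was absent. The peak lists do not give the depth of the libraries, and the reads were not analysed here.

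**Figure D1:**
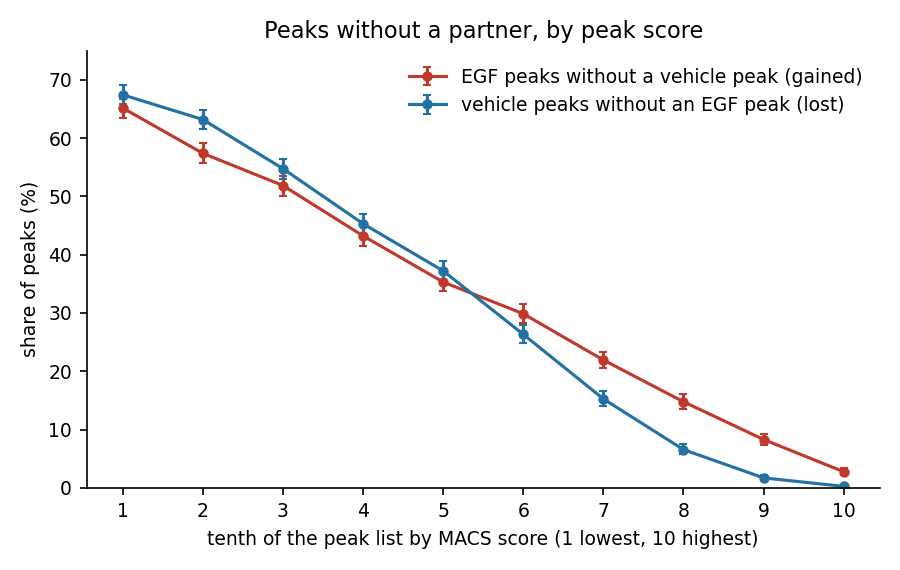
Share of peaks without a partner in the other list (y axis, %) over 10 equal groups of each list by MACS score (x axis), with gained EGF peaks in red and lost vehicle peaks in blue. Bars are 95% Wilson intervals. Both curves fall with the score, and in group 8 the gained share is 14.8% against a lost share of 6.56%.

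The AP-1 word separated the classes. It lay within 100 bp of the centre at 2357 of 10768 gained peaks (21.9%, interval 21.1–22.7%), 1758 of 21799 kept EGF peaks (8.06%, interval 7.71–8.43%) and 311 of 10237 lost peaks (3.04%, interval 2.72–3.39%). In flanks 2 kb from the centres the shares were 3.32%, 3.16% and 2.95%. Lost peaks thus carried the word no more often than the sequence around them. The position of the word followed the same order. The density of AP-1 words in the central 50 bp on either side was 7.73 times that at 750 to 1000 bp for gained peaks, 2.61 times for kept peaks and 0.895 times for lost peaks.

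The ERR words had another order. The full element lay at 5.60% of gained peaks (interval 5.18–6.05%), 8.34% of kept peaks (interval 7.98–8.71%) and 4.99% of lost peaks (interval 4.59–5.43%), against 0.316%, 0.365% and 0.234% of the flanks. Its density at the centre was 27.1, 26.4 and 28.3 times that at the edge, so its concentration at the centre was alike in the 3 classes. The core word lay at 25.6% of gained, 28.0% of kept and 17.1% of lost peaks, with 3.76%, 3.81% and 3.41% of the flanks.

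**Figure D2:**
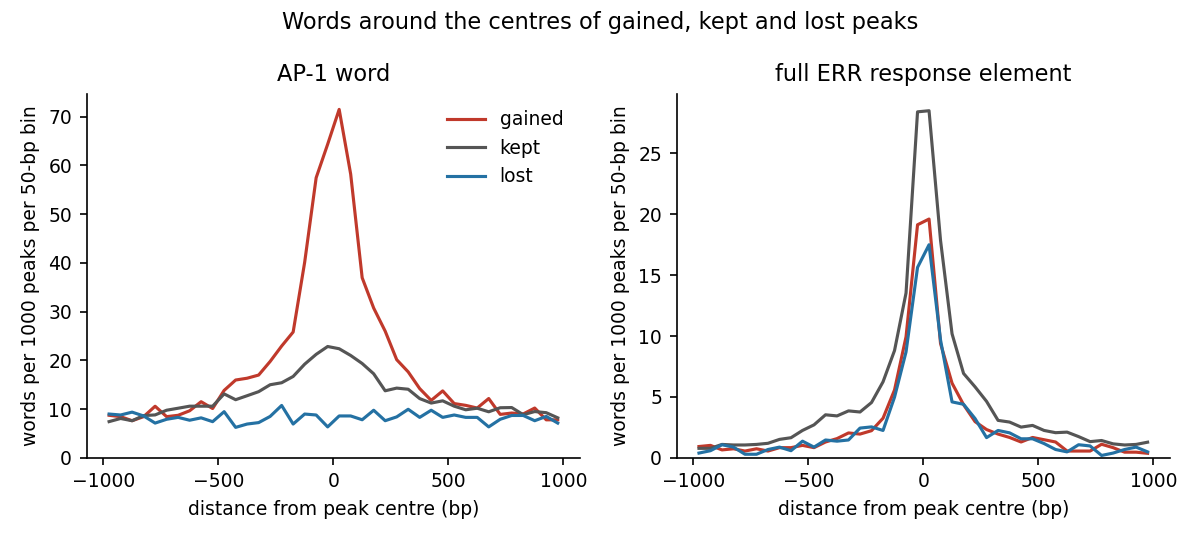
Words per 1000 peaks in bins of 50 bp (y axis) by distance from the peak centre in bp (x axis), for the AP-1 word on the left and the full ERR response element on the right. Gained peaks are red, kept EGF peaks grey and lost peaks blue. The AP-1 word peaks at the centre of gained peaks and is flat across lost peaks, whereas the full element peaks at the centre of all 3 classes.

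The AP-1 share of gained peaks was higher among stronger peaks. Over 4 equal groups of the EGF list by score it was 18.4%, 22.96%, 25.9% and 31.3% (interval 27.7–35.2%) from the weakest to the strongest. At kept EGF peaks it was 5.14%, 6.43%, 8.30% and 10.2% over the same groups, and at lost peaks it lay between 2.97% and 3.06% over the groups of the vehicle list. The full element had no such course at gained peaks, with 6.46%, 5.02%, 4.26% and 6.23%. Among the 100 gained peaks of highest score 33 had the AP-1 word and 6 the full element, and among the 100 lost peaks of highest score 2 had the AP-1 word and 4 the full element.

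The AP-1 word and the full element were seldom found at the same peak. Both lay at 107 gained, 101 kept and 7 lost peaks. The full element was present at 4.54% of gained peaks with the AP-1 word (interval 3.77–5.46%) and at 5.90% of those without it (interval 5.41–6.42%). The core word was present at 26.4% of gained peaks with the AP-1 word and at 25.4% of those without. Where both words were present, they were a median of 32 bp apart at gained peaks, 27 bp at kept peaks and 55 bp at the 7 lost peaks. At 7915 gained peaks (73.5%) neither the AP-1 word nor the full element was found in the window, which covers only these exact letters.

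The higher AP-1 share of gained peaks held in each kind of location. At promoters, taken as within 1 kb of the start of a protein-coding gene, it was 13.7% of gained peaks (interval 11.3–16.5%), 3.51% of kept peaks and 1.20% of lost peaks. In introns it was 22.6% of gained, 8.66% of kept and 2.95% of lost peaks. Among intergenic peaks farther than 20 kb from a start it was 23.01%, 9.11% and 3.51%. Of the other words searched, some differed little between the classes and some did. The forkhead word TGTTTAC lay at 5.27% of gained, 4.64% of kept and 5.03% of lost peaks, the TEAD word ACATTCC at 4.70%, 4.98% and 4.83%, and the GATA word AGATAAG at 2.76%, 2.82% and 3.17%. The ETS word CCGGAAGT was rare and lay at 0.269% of gained (interval 0.188–0.387%), 0.789% of kept (interval 0.680–0.916%) and 0.508% of lost peaks. The GC-box word GGGGCGGG of SP1 lay at 1.08% of gained, 1.67% of kept and 0.928% of lost peaks.

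Kept sites also differed by the AP-1 word when they were ordered by how their score percentile differed between the lists. The 21799 kept EGF peaks were divided into 5 equal groups by the percentile on EGF minus that of the best vehicle peak. From the group with the largest fall to that with the largest rise, the AP-1 share was 3.53%, 4.86%, 5.39%, 10.0% and 16.5%, while the flanks stayed between 2.99% and 3.33%. The full element was at 7.91%, 8.92%, 9.59%, 8.60% and 6.67% of the same groups. The promoter share was 13.9%, 16.8%, 16.9%, 11.2% and 7.23%. Percentile differences between 2 lists depend on both lists, and no read counts were used.

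**Figure D3:**
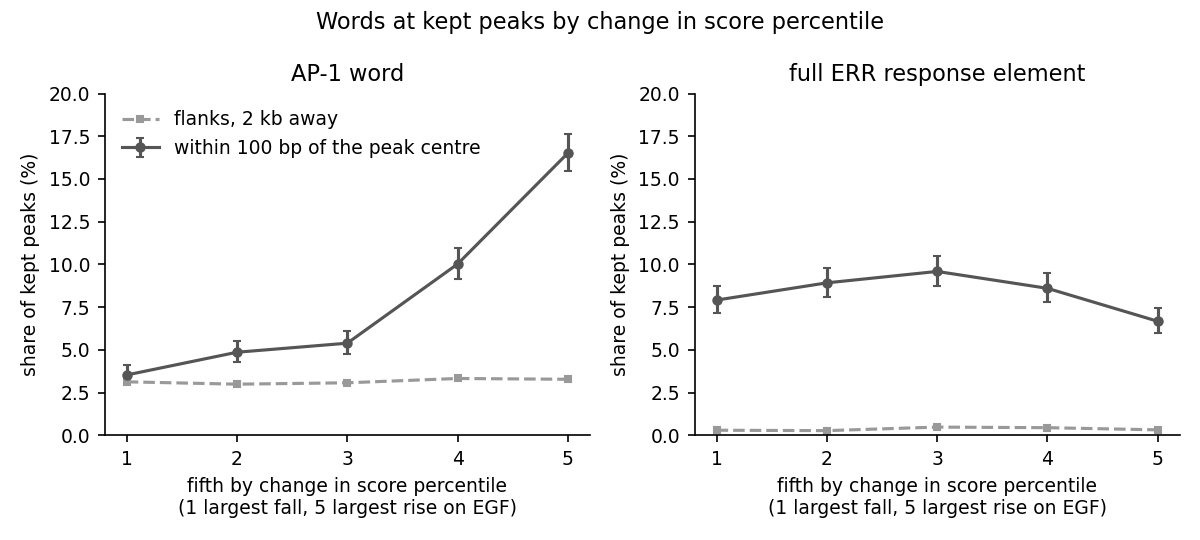
Share of kept EGF peaks (y axis, %) with the AP-1 word on the left or the full ERR response element on the right, over 5 equal groups by change in score percentile from vehicle to EGF (x axis, from largest fall to largest rise). Points are shares within 100 bp of the centre with 95% Wilson intervals, and dashed lines are flanks 2 kb away. The AP-1 share goes from 3.53% to 16.5% and the full element stays between 6.67% and 9.59%.

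Of the 6 kept sites with the largest rise, 5 lay in introns, those of CD86, MAPKAPK3, MARCO, ARNT2 and PPARD. The nearest start was that of ABHD17C, 102258 bp away, for the ARNT2 site and that of FANCE, 50527 bp away, for the PPARD site. The remaining site was intergenic, 177824 bp from the nearest start, that of TRIM29. The site in an intron of CD86, which encodes a costimulatory ligand on antigen-presenting cells (chr3:121778483-121779961), was at percentile 98.6 on EGF and 2.4 on vehicle, and held a full element. The intronic site of MAPKAPK3, a kinase activated by MAP kinases, was at 98.6 on EGF and 3.5 on vehicle. The MARCO site, in an intron of a scavenger receptor gene, was at 95.5 and 2.0 and held the AP-1 word. All 6 had a vehicle percentile below 5. Those with the largest fall included sites whose nearest starts were those of DHCR7 at 3837 bp, PNRC1 at 21875 bp, WNT7B at 53278 bp, SOX9 at 114958 bp and RFC3 at 518731 bp. The intergenic site whose nearest gene is SOX9, which encodes a developmental transcription factor, was at percentile 1.9 on EGF and 86.1 on vehicle. That in an exon of DHCR7, the last enzyme of one route of cholesterol synthesis, was at 2.1 and 86.3. The intergenic site whose nearest gene is RFC3 was at 10 and 96.6 and held the AP-1 word.

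Gained and lost sites lay mainly away from promoters. A promoter location was found for 680 gained peaks (6.32%, interval 5.87–6.79%), 2877 kept peaks (13.2%, interval 12.8–13.6%) and 831 lost peaks (8.12%, interval 7.60–8.66%). Introns held 43.4% of gained, 43.0% of kept and 42.1% of lost peaks. The median distance to the nearest start was 34438 bp for gained peaks, 26033 bp for kept peaks and 56201 bp for lost peaks. The promoter share of kept peaks was between 12.9% and 13.4% in all 4 score groups, while that of gained peaks went from 7.53% in the weakest group to 4.84% in the strongest. Mean GC content around the centre was 45.2% for gained, 47.0% for kept and 42.9% for lost peaks. The part of GC content in these differences was not tested.

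The lost sites were unevenly spread over the chromosomes and the gained sites were not to the same extent. On chromosome 7, 2118 of 3497 vehicle peaks were lost (60.6%, interval 58.9–62.2%), which is 20.7% of all lost peaks. The lost share was 48.3% on chromosome 20 (interval 45.2–51.4%), 38.8% on chromosome 3 and 15.7% on chromosome 19 (interval 13.1–18.6%). Leaving out chromosome Y with its 6 peaks in each list, the gained share ranged from 28.2% on chromosome 22 to 39.1% on chromosome 18, with 36.4% on chromosome 7. Of 475 stretches of 5 Mb with at least 20 vehicle peaks, 50 had more than 50% of them lost. These held 38.5% of all lost peaks, and 21 of them were on chromosome 7. Of 499 such stretches with at least 20 EGF peaks, 13 had more than 50% gained, with 2.81% of all gained peaks.

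**Figure D4:**
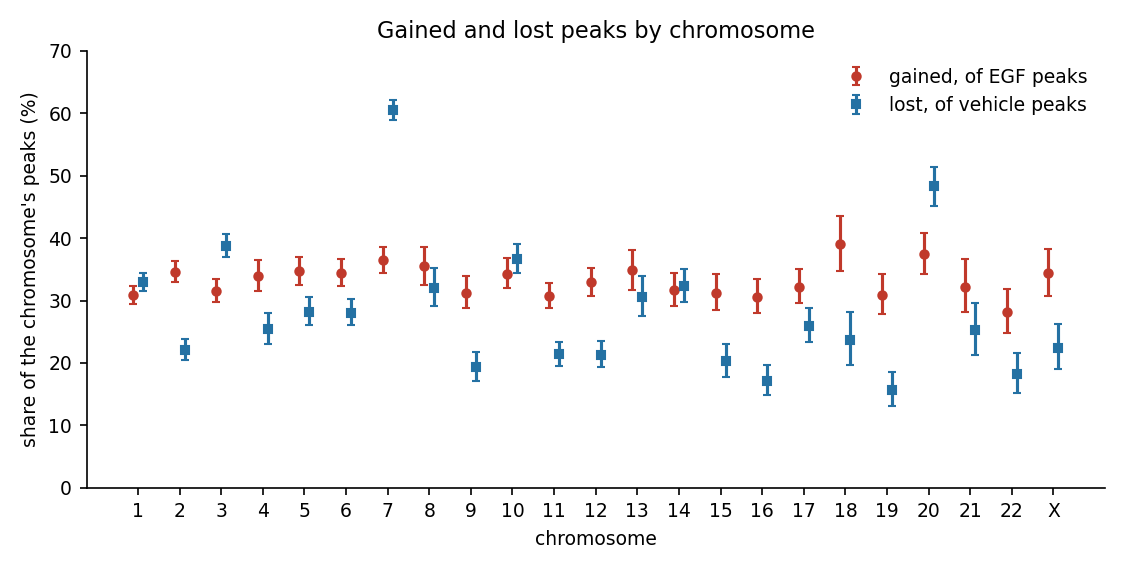
Share of each chromosome's EGF peaks that were gained (red circles) and of its vehicle peaks that were lost (blue squares), in % (y axis), by chromosome (x axis), with 95% Wilson intervals. Chromosome Y, with 6 peaks in each list, is left out. Lost shares reach 60.6% on chromosome 7 and 48.3% on chromosome 20, while gained shares lie between 28.2% and 39.1%.

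Peaks of chromosome 7 differed in sequence from the other peaks in all 3 classes. The full element lay at 1.65% of its lost peaks (interval 1.19–2.29%) against 5.86% of lost peaks elsewhere (interval 5.37–6.40%), the core word at 8.03% against 19.5%, and a promoter location was found for 2.69% against 9.53%. Their mean GC content was 38.4% against 44.1%. Among gained peaks the full element lay at 2.21% on chromosome 7 against 5.86% elsewhere, the core word at 13.7% against 26.5%, a promoter location was found for 3.39% against 6.54%, and mean GC content was 40.8% against 45.5%. Among kept peaks the full element lay at 5.37% against 8.53%, the core word at 18.96% against 28.6%, and mean GC content was 42.6% against 47.3%. The AP-1 share of gained peaks was 12.1% on chromosome 7 and 22.6% elsewhere. Whether the copy number of these stretches, their GC content or a difference between the libraries has a part in this was not tested.

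Where gained and lost peaks were densest followed the same split. Counting peaks with a centre within 50 kb of a gene's start, ASAP1, which encodes an Arf GTPase-activating protein, had 11 gained peaks and 3 lost peaks. FHL2, a LIM-domain cofactor, had 9 gained and 1 lost. ASAP2, BMERB1, MACF1, MERTK, RBM47 and TIAM1 had 8 gained peaks each, with no more than 2 lost. MACF1 links actin and microtubules, MERTK is a receptor tyrosine kinase and TIAM1 activates the GTPase Rac. The lost peaks were denser. GRM7, a glutamate receptor gene on chromosome 3, had 36 lost and 6 gained peaks, and SLC35F4 on chromosome 14 had 22 and 2. On chromosome 7, the transcription factor gene CREB5 had 21 lost and 4 gained, the deacetylase gene HDAC9 20 and 0, JAZF1 14 and 1, NXPH1 14 and 2, and DGKB 13 and 4. ANK3 on chromosome 10 had 17 lost and 4 gained. Genes with several starts that lie apart cover more sequence in such a count, and the part of this was not tested.

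The 12 gained peaks of highest score were at percentiles from 95.8 to 98.6 of the EGF list. That of PARVB, which encodes β-parvin of focal adhesions, lay in an intron (chr22:44432771-44434168) at percentile 98.6, 80535 bp from the nearest vehicle peak. The peak near SELPLG, the P-selectin ligand gene, was at the same percentile. Then came peaks in introns of HYDIN (which has a near-identical copy elsewhere in the genome, so reads there are uncertain), SPSB1 and BCL2L1. The other peaks were intergenic, with a nearest start from 7287 bp (PMP22) to 96413 bp (FOXF2) away, and the nearest genes of the rest were ZPBP, RHOD, MCFD2, SHANK3 and CITED4. BCL2L1 encodes the survival protein BCL-XL, and CITED4 an interactor of the CBP and p300 coactivators. The BCL2L1 peak was intronic (chr20:30283417-30284765, percentile 95.8) and 7066 bp from the nearest vehicle peak. The ZPBP, RHOD, BCL2L1 and CITED4 peaks held the AP-1 word and the HYDIN and FOXF2 peaks a full element.

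The 10 lost peaks of highest score were at percentiles from 89.5 to 96.7 of the vehicle list, and 6 of them were on chromosomes 7 or 20. The intronic peak of TSPAN14, a tetraspanin gene (chr10:82256887-82260466), was at percentile 96.7 of the vehicle list and held the AP-1 word. Those of EYA2, GPR160, PREX1 (a Rac activator) and NFATC2 were intronic, that of TPRG1 lay in an exon, and that of ZMYND8 lay 2982 bp from a start. For the remaining 3 the nearest start was distant, 83539 bp away for SEC61G (a translocon subunit), 639807 bp for ANKRD7 and 1179402 bp for FLRT2. These 9 peaks held neither the AP-1 word nor an ERR word. All 10 were wide, from 3577 to 10722 bp, against a median of 1290 bp for all lost peaks.

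The other ERRα lists of the series were not used to class the sites and give a separate view of them. Of the gained peaks 48.6% (interval 47.7–49.5%) overlapped a peak of SKBr3 cells on heregulin (HRG), against 75.7% of kept and 17.5% of lost peaks. In the strongest of the 4 score groups the HRG share of gained peaks was 93.8% (interval 91.5–95.5%), that of kept peaks was 98.1% (interval 97.8–98.4%), and that of the 133 lost peaks was 30.1% (interval 22.9–38.3%). Parental cells labelled untreated (pSKBr3), for which the labels give no serum starvation and whose usual medium holds serum, had a peak at 13.1% of gained, 61.7% of kept and 17.2% of lost peaks. Lapatinib-resistant LRSKBr3 cells, which were kept in 2 μM lapatinib, had one at 34.5%, 83.5% and 34.5%. Gained peaks with the AP-1 word met a pSKBr3 peak less often (6.79%, interval 5.84–7.88%) than those without it (14.9%, interval 14.2–15.7%), whereas their HRG shares were 51.7% and 47.7%. Gained peaks with a full element met an LRSKBr3 peak in 48.1% of cases and those without one in 33.7%. BT-474 is another ERBB2-positive breast cancer line, with 1 ChIP library for each list. Gained peaks met a BT-474 peak on vehicle in 22.97%, on EGF in 17.1% and on HRG in 33.5% of cases, kept peaks in 57.7%, 46.9% and 61.2%, and lost peaks in 22.7%, 15.6% and 23.4%. None of the 6 other lists had a peak at 28.2% of gained, 5.96% of kept and 47.8% of lost peaks. These shares also depend on the size of each list, from 22539 peaks in pSKBr3 to 41271 in BT-474 cells on HRG.

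Genes were linked to a peak whose centre lay within 20 kb of a start. Of 19794 protein-coding genes, 11515 (58.2%) had a peak of either list in range. A gained peak was in range of 4252 genes (21.5%), a kept peak of 8502 (43.0%) and a lost peak of 3387 (17.1%). Of all genes, 1513 (7.64%) had a gained peak and no vehicle peak in range, and 1172 (5.92%) had a lost peak and no EGF peak. These shares are the background for the 13 gene lists. In all 13 the share of genes with any peak in range exceeded 58.2%, from 62.5% (adaptors and Ras-ERK cascade) to 96.8% (TCA cycle). The link is one of distance, and says nothing of regulation.

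The metabolic lists were marked by kept sites. Of 31 genes of the tricarboxylic acid (TCA) cycle and pyruvate entry, 28 (90.3%, interval 75.1–96.7%) had a kept peak, 11 a gained and 4 a lost one. Of 37 genes for subunits of respiratory complex I, 33 (89.2%, interval 75.3–95.7%) had a kept peak, 5 a gained and 9 a lost one. Only PDK3, which encodes a kinase that inhibits pyruvate dehydrogenase, had a gained peak without a vehicle peak in the TCA list, and no complex I gene did. With a score of 50.02 this peak was at the lowest end of the EGF list. PDK1 in the TCA list and NDUFB8 in the complex I list had a lost peak and no EGF peak, at percentiles 2.1 and 29.3 of the vehicle list. PC, the pyruvate carboxylase gene, had 4 gained peaks, of which the strongest (chr11:66723721-66725117) was intronic at percentile 85.3, and 2 of the 4 held the AP-1 word. It also had 4 kept and 2 lost peaks. IDH3A had a gained intronic peak at percentile 72.6 beside 2 kept ones.

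Genes for ERR proteins and their coregulators had a gained peak at 8 of 12 (66.7%, interval 39.1–86.2%, against 21.5% of all genes), with kept peaks at 5. Lost peaks were at 5 as well (41.7%, interval 19.3–68.1%, against 17.1% of all genes). Any peak was in range of 9 of the 12 (75%), against 58.2% of all genes. The strongest gained peak was in an intron of PPARGC1B (chr5:149217925-149220074), which encodes the ERRα coactivator PGC-1β. This peak was at percentile 94.2 and held the AP-1 word. PPARGC1B had 1 further gained peak, at percentile 52.4 and also with the AP-1 word, 4 kept peaks and 2 lost peaks of the weak kind (percentiles 20.6 and 12). ESRRA itself had a gained peak at chr11:64098553-64100134, at percentile 91.0, with the AP-1 word and the core word. Its centre was 17588 bp from an ESRRA start and 8332 bp from the nearest start of any gene. A second, weaker gained peak in range of ESRRA was at percentile 48.4 of the EGF list, 251 bp from the nearest start of any gene. A lost peak (chr11:64067960-64069293) was at percentile 43.7 of the vehicle list. It lay within the neighbouring gene CATSPERZ, 709 bp from the nearest start of any gene. The strongest peak of ESRRA, kept at the promoter, had the tied score of 3100 in both lists, so that a difference between them could not be seen. Its kept intronic peak was at percentile 56.3 on EGF and 84.7 on vehicle. ESRRB, NCOA3 and NCOR1 had gained peaks and no vehicle peak in range, and PPRC1 had only a lost peak.

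Feedback inhibitors of receptor signalling, which include the DUSP phosphatases, the Sprouty proteins and SOCS3, had a gained peak at 13 of 24 genes (54.2%, interval 35.1–72.1%), a kept peak at 12 and a lost peak at 7. CBLB, DUSP2, DUSP7, SOCS3, SPRED1 and SPRY2 had a gained peak and no vehicle peak. That of DUSP7, a phosphatase of ERK (chr3:52079955-52081265), was at percentile 80.4 with a full element, and that of CBLB, a ubiquitin ligase for activated receptors, was at 59.9. The other 4 were at percentiles from 5.3 to 24.5, including peaks 443 bp from a start of SPRY2 and 992 bp from one of SPRED1. DUSP6 and DUSP10 had a lost peak and no EGF peak, at percentiles 16.7 and 1.2 of the vehicle list.

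The AP-1 family and other immediate early genes include genes that are transcribed within minutes of growth factor addition. In the AP-1 family 10 of 15 genes had a kept peak, 7 a gained peak (46.7%, interval 24.8–69.9%) and 1, JUNB, a lost peak. JUND had 3 gained peaks and no vehicle peak, at percentiles 31.8, 27.1 and 22.2, the first with the AP-1 word. Of 23 other immediate early genes 14 had a kept, 7 a gained and 6 a lost peak. IER2 had 5 gained peaks and no vehicle peak. The strongest of them lay in an intron of the neighbouring gene NACC1 (chr19:13242726-13243969, percentile 74.1) and held the AP-1 word. EGR3 and NR4A2 had a lost peak and no EGF peak, at percentiles 21.7 and 71.7 of the vehicle list.

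For the receptors and cascades the intervals of the gained share all included the share over all genes, 21.5%. The same held for the TCA cycle list (35.5%, interval 21.1–53.05%) and complex I (13.5%, interval 5.91–28.0%). It also held for other immediate early genes (30.4%, interval 15.6–50.9%) and laminins (36.4%, interval 15.2–64.6%). In the EGF family of ligands and ERBB receptors 6 of 15 genes had a gained peak (40.0%, interval 19.8–64.3%), 7 a kept and 5 a lost one. HBEGF, which encodes an EGFR ligand, had gained peaks at percentile 86.8 (in its intron, chr5:139716488-139719187) and 12.3, and a lost peak at 2.0. NRG3 and NRG4 had gained peaks and no vehicle peak. EGFR, on chromosome 7, had 1 gained, 3 kept and 3 lost peaks. In the adaptors and Ras-ERK cascade 5 of 24 had a gained, 10 a kept and 4 a lost peak. RPS6KA1, a kinase below ERK, had gained peaks at percentiles 88.9 and 76.6 beside a kept peak. ELK3, GAB2 and MAP2K1 had a gained peak and no vehicle peak. MAPK3 and ELK4 had a lost peak and no EGF peak, at percentiles 74.5 and 3 of the vehicle list. In the PI3K-AKT-mTOR core 2 of 20 had a gained, 10 a kept and 4 a lost peak. The gained peaks were those of AKT2 and PIK3R1, which had no vehicle peak. PIK3CA and TSC1 had a lost peak and no EGF peak, at percentiles 30.6 and 44.1 of the vehicle list. The stronger PIK3R1 peak, in an intron of this gene for a PI3-kinase regulatory subunit (chr5:67572717-67574146), was at percentile 90.1 and held the AP-1 word.

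Genes of cell adhesion and of the cell surface formed 3 lists. Among integrins, the receptors for the extracellular matrix, 11 of 26 had a gained peak (42.3%, interval 25.5–61.1%), 16 a kept peak and 1, ITGB8 on chromosome 7, a lost peak. ITGA3 and ITGA5 had 3 gained peaks each, the strongest at ITGA5 (percentile 80.3, 3415 bp from a start). ITGAX and ITGAD, which encode leukocyte integrins, had gained peaks without a vehicle peak. Among laminins 4 of 11 had a gained, 7 a kept and 2 a lost peak, and LAMA3 and LAMA4 had a gained peak and no vehicle peak. The LAMA3 peak lay 49 bp from a start and held the AP-1 word. Among proteases that act at the cell surface, their inhibitors and CD44, 8 of 19 had a gained, 8 a kept and 4 a lost peak. MMP9, PLAT, PLAU and TIMP2 were among the genes with gained peaks and no vehicle peak. The converse held for MMP3, with 2 lost peaks and no EGF peak, and PLAUR, with 1 lost peak and no EGF peak. The intronic MMP9 peak, in this matrix metalloproteinase gene on chromosome 20 (chr20:44641253-44645482), was at percentile 95.2. It met a pSKBr3 peak but no HRG peak. CD44, which encodes the hyaluronan receptor, had 5 gained and 3 kept peaks, with the strongest gained one in an intron at percentile 81.1.

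In the list of luminal epithelial transcription factors 8 of 17 genes had a gained peak (47.1%, interval 26.2–69.0%), 12 a kept and 6 a lost one. FOXA1, a pioneer factor of luminal cells, had gained peaks at percentiles 87.6 (chr14:38048823-38050256) and 23, both with the AP-1 word, beside a kept peak and a lost one. GATA3 had 2 gained peaks, at percentiles 17.3 and 15.3, and no vehicle peak in range. TFF1, the trefoil factor gene, had 1 gained peak at its promoter at percentile 55.1, and its window held the core word.

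**Figure D5:**
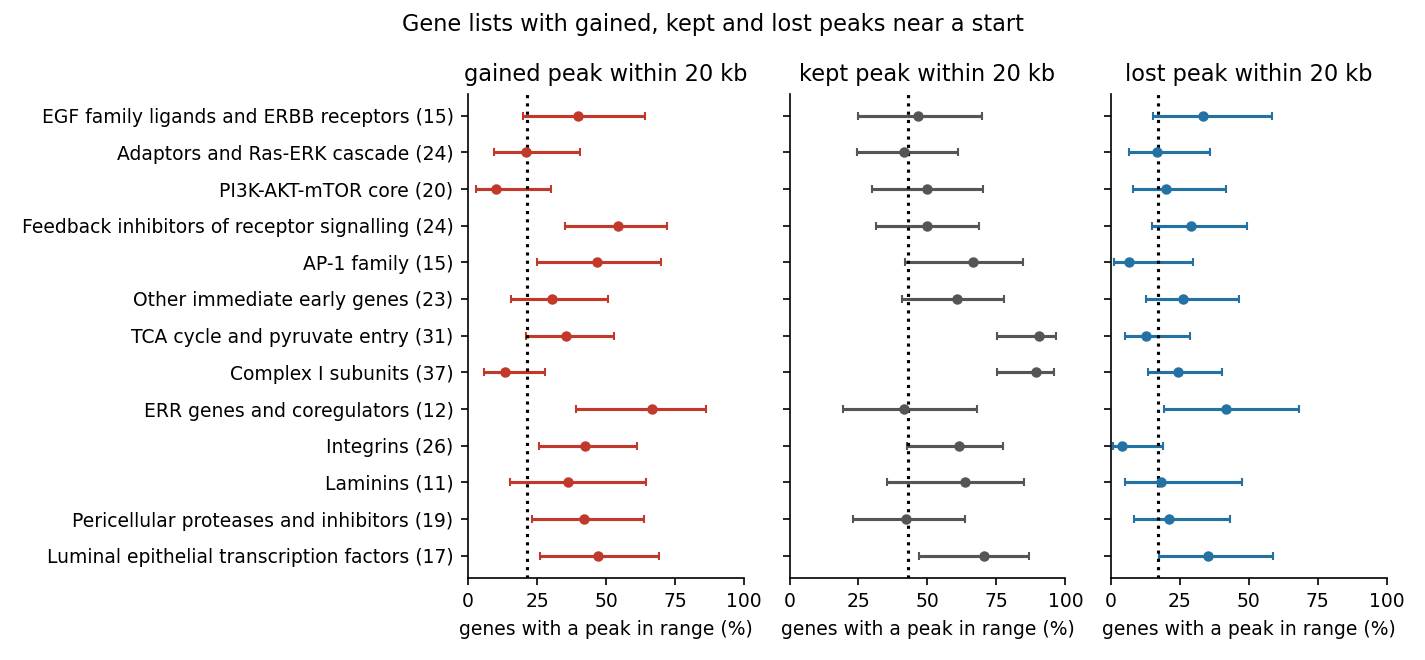
Share of the genes of 13 lists (y axis, number of genes in brackets) with a gained, kept or lost peak within 20 kb of a start (x axes, %), with 95% Wilson intervals. Dotted lines are the shares over all 19794 protein-coding genes, 21.5%, 43.0% and 17.1%. The TCA cycle and complex I lists stand at 90.3% and 89.2% for kept peaks.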

How the data were processed

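ERRα ChIP-seq of SKBr3 cells on vehicle and EGF was analysed from the peak lists the authors deposited, 1 list for each condition. According to the methods and labels of the study, reads were aligned to hg19 with BWA 0.5.9, SAMtools 0.1.18 was used, and peaks were called with MACS (mfold 10 and 30, bandwidth 300, P value cutoff 1e-05). Each list came from 2 ChIP libraries and 1 input. The only measurement in a deposited list is the MACS score, read here as a negative log10 P value multiplied by 10 from the MACS names of the peaks and the lowest score of 50. It depends on depth, which the lists do not give, and was therefore ranked within a list only. The header of the SKBr3 lists also names FindPeaks, and its role is not given in the sources used here, so the meaning of the score is an inference. The lists hold no summit, so the peak centre was used.

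Peaks were compared by coordinates with Python 3.11.15, pandas 2.3.3, numpy 2.4.6 and pysam 0.24.0. Nearby genes came from GENCODE starts of 19794 protein-coding genes, and sequence from GRCh37. Flanks were windows of the same width 2 kb to either side of the centre. No test was made, because replicates are pooled within each list. The named sites were the 12 gained and 10 lost peaks of highest score (ties by distance to the other list), the 6 kept sites with the largest rise and the 6 with the largest fall in percentile, and the 8 genes with most gained and the 8 with most lost peaks. They also include members of the 13 gene lists with a gained or lost peak, ESRRA, TFF1, and high-scoring gained peaks with both words, which were added after their values were seen. Some of the items these rules name are not reported here. The classes, words and gene lists were chosen with earlier results of these data known. On simulated lists 7978 of 7978 peaks received their class, and 494 of 494 planted words were found. Alternatives covered the score cutoff, the overlap rule, the windows and chromosome 7.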

Additional observations from a re-analysis of the deposited data

How the results depend on the processing

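The order of the AP-1 share (gained over kept over lost) and the highest ERR element share at kept peaks held in all 9 settings that gave these shares, the main one included. Of 94 values under alternatives, 56 stayed within 1.5 times the main count or within the interval of the main share. With both lists cut at a score of 100 there were 6985 gained, 14426 kept and 5746 lost peaks, the full element lay at 5.50% of lost peaks and a promoter at 11.1% of them. With members cut at 100 and the other list whole there were 4460 gained and 3204 lost peaks, the AP-1 shares were 25.6% (gained) and 8.78% (kept), the full element shares 4.73% (gained) and 3.93% (lost), the promoter shares 5.02% (gained) and 8.83% (lost), and 638 genes had gained and 445 lost peaks alone. Requiring 50% of both peaks gave AP-1 shares of 20.6% (gained) and 3.66% (lost). Centres within 500 bp gave 19.4% and 3.69%, with the full element at 5.12% of gained and 8.92% of kept peaks. Requiring no peak of the other list within 2 kb gave an AP-1 share of 8.78% at kept peaks. Without chromosome 7 the full element lay at 5.86% and a promoter at 9.53% of lost peaks. A motif window of 50 bp gave AP-1 shares of 12.2%, 4.18% and 1.36% and full element shares of 3.58%, 5.24% and 2.95% for gained, kept and lost peaks. One of 250 bp gave 35.6%, 16.9% and 7.78%, and 7.88%, 12.2% and 7.16%. Promoters taken within 2 kb held 9.48% of gained and 10.6% of lost peaks. The cause of these shifts was not tested beyond what each setting changes by construction. No replicate could be left out, since each list pools its libraries. No paired analysis was possible because the results come from no test and the lists carry no replicate numbers.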

Other observations

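A few stretches with many gained or lost peaks held peaks that were wider than most. On chromosome 14 between 85 and 90 Mb, 43 of 94 EGF peaks were gained (45.7%) and 123 of 180 vehicle peaks were lost (68.3%), and the median width of all peaks in the stretch was 4528 bp on EGF and 4429 bp on vehicle. On chromosome 7 between 115 and 120 Mb, 66 of 107 EGF peaks were gained (61.7%), and the median width of the 107 peaks was 4905 bp. Over the whole EGF list the median width was 1231 bp for gained and 1497 bp for kept peaks.

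Lost peaks lay closer to each other than gained peaks did. The median distance from a lost peak to the next lost peak was 27714 bp, against 48735 bp between gained peaks, and 32.2% of lost and 20.1% of gained peaks had another of their class within 10 kb.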
